A study of Mus musculus with 20 samples.

Results

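The genes of glycogen breakdown and synthesis were examined in mouse cardiac ventricle, with the brain-type phosphorylase Pygb set against the other phosphorylase isoforms. Of 10 listed genes, Pygb, Pygm, Pygl, Gys1, Gaa, Gsk3b, Phka1, Phkg1, Pgm1 and Ugp2, 8 had a probe set of their own on the array, and these 8 genes held 9 of its 12488 probe sets. Gaa was measured by 2 probe sets and each other gene by 1. The probe annotation used here links no probe set to Pygl, the liver phosphorylase, or to Gsk3b, a kinase that inhibits glycogen synthase, so these genes were not analysed here. Of the 9 probe sets, 8 lay among the 7453 brightest probe sets that were tested, and the probe set of Phkg1 was too dim to be among them. The members were selected on measured values of tTA against FVBN control ventricles, in which Pygb was low, so the members' values in that comparison are a description and carry no test.

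Total RNA from ventricles was hybridised to 1 Affymetrix mouse expression array per sample, in 4 groups. The tTA + Doxy group held 5 arrays of mice carrying the tetracycline-controlled transactivator (tTA) and given doxycycline, and the tTA group held 8 arrays of tTA mice without it. The FVBN + Doxy group held 4 arrays of FVBN mice, an inbred strain, given doxycycline, and the FVBN control group held 2 arrays of FVBN mice without it. tTA is a bacterial repressor fused to a viral activation domain, used to switch on transgenes, and doxycycline keeps it off its DNA sites. Keywords in the labels name the alpha MHC promoter, which is active in cardiomyocytes. The labels give no age, sex, number of transgenic lines or doxycycline dose, and they do not say whether arrays came from separate animals, so that each p-value speaks of the spread among arrays, which may be technical.

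Glycogen phosphorylase removes glucose units from glycogen as glucose 1-phosphate. Mammals have 3 isoforms, encoded by Pygm (muscle), Pygb (brain) and Pygl (liver), and heart muscle is known to hold both the muscle and the brain isoform. Phosphorylase kinase activates the enzyme; Phka1 encodes its muscle alpha subunit and Phkg1 its muscle catalytic subunit. In the other direction, phosphoglucomutase (Pgm1) interconverts glucose 6-phosphate and glucose 1-phosphate, Ugp2 makes UDP-glucose, and glycogen synthase (Gys1, the muscle isoform) adds its glucose to the chain. Gaa, acid alpha-glucosidase, breaks glycogen down in lysosomes by a separate route.

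The bases before the annotated starts of Pygb, Pygm and Pgm1 are shown because Pygb and Pgm1 were the members that passed the test under doxycycline, in opposite directions, and Pygm is the isoform that Pygb was compared with. Sequences are from RefSeq on GRCm38.p6, each the 250 bases before the start on the plus strand, in lower case with every match to a searched motif in capitals. The windows are chr2:150786546-150786795 for Pygb, chr19:6384158-6384407 for Pygm and chr4:99929201-99929450 for Pgm1.
Pygb: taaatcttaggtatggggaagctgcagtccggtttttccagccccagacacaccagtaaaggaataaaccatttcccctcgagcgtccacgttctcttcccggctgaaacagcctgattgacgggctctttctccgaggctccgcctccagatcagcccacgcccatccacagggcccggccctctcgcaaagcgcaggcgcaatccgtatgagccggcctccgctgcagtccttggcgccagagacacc
Pygm: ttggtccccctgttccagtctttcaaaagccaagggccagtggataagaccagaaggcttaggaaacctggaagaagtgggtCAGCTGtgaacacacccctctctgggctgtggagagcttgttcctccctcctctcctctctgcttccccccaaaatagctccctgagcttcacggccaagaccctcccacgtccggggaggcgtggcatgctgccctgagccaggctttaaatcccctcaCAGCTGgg
Pgm1: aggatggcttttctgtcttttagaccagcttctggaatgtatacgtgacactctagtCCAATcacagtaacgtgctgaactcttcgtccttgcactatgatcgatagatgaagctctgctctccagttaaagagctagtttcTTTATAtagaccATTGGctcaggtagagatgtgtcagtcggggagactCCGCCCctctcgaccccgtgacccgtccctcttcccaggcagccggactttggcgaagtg
The motifs, searched on both strands, were the GC box GGGCGG, the CCAAT box CCAAT, the TATA box TATAAA and the E-box CANNTG. None of these letters occurred in the Pygb window, which was 60% G and C. The Pygm window held 2 E-boxes, beginning at positions -168 and -8 from the start, and was 58.4% G and C. The Pgm1 window held 1 GC box at -60, 2 CCAAT boxes at -193 and -96 and 1 TATA box at -108, and was 50.4% G and C. No matches overlapped in these 3 windows. Of 32851 windows of the same length, 32.7% held the GC box, 33.8% the CCAAT box, 12.4% the TATA box and 66.2% the E-box.

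Array medians lay between 60.7 and 62.5 units of intensity, and arrays of 1 group correlated at r = 0.993 to 0.998 across probe sets, with 0 pairs identical. All 8 ventricular cardiomyocyte markers were among the tested probe sets, with a summed intensity of 29964 to 34792 in tTA + Doxy, 28638 to 34203 in tTA, 29793 to 33038 in FVBN + Doxy and 31360 to 34112 in FVBN control. Of these markers Ryr2, the calcium release channel, fell in both genotype comparisons (-0.58 ± 0.09 in tTA + Doxy and -0.82 ± 0.10 in tTA), and Mybpc3, a myosin binding protein, rose under doxycycline (0.31 ± 0.05). Arrays are named by numbers whose meaning the labels do not give. The tTA arrays fell into a run from 7288 to 7311 and a pair, 9310 and 9322, that stood apart, with the runs of the other groups between them. No run held more than 1 group, so that run and group cannot be told apart. Without 9310 and 9322 the log2 fold change of Pygb was -0.66 in tTA + Doxy against FVBN + Doxy and -0.83 in tTA against FVBN control. In whole ventricle, fewer cells of a type and less RNA per cell cannot be told apart either.

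Under doxycycline, Pygb was the member with the largest difference between genotypes. The gene lies at chr2:150786796-150831748 (GRCm38.p6). Its intensity was 265, 266, 251, 297 and 258 in the tTA + Doxy arrays, against 415, 461, 343 and 441 in the FVBN + Doxy arrays. Every tTA + Doxy array lay below every FVBN + Doxy array, and the lowest FVBN + Doxy value, from array 8340, stood apart from the other three. The means were 268 ± 17.7 in tTA + Doxy and 415 ± 51.3 in FVBN + Doxy (SD, n = 5 and 4). Pygb fell by 0.66 ± 0.10 on the log2 scale (standard error; 95% interval -0.87 to -0.45), 1.58-fold, with a limma adjusted p = 0.000530 over all 7453 probe sets. It was the 12th lowest log2 fold change of the 7453. In this comparison 5.86% of all tested probe sets were called at an adjusted p under 0.05, 4.27% higher and 1.6% lower. Groups did not overlap for 3.49% of all tested probe sets with tTA + Doxy lower and for 6.23% with it higher.

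Without doxycycline, Pygb intensity in the 8 tTA arrays had a lowest value of 225, a median of 282 and a highest value of 345, against 504 and 473 in the FVBN control arrays. All 8 tTA arrays lay below both control arrays. The means were 279 ± 39.9 in tTA and 488 ± 22.1 in FVBN control (SD, n = 8 and 2), a log2 fold change of -0.77 ± 0.12, or 1.70-fold, which was the 12th lowest of 7453. This is the comparison in which Pygb was picked, and 2.79% of all tested probe sets were called in it, 0.966% higher and 1.82% lower. Groups did not overlap for 6.09% with tTA lower and for 6.63% with it higher.

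By mean intensity the 4 groups ran, from low to high, tTA + Doxy, tTA, FVBN + Doxy, FVBN control. The lowest neighbours, tTA + Doxy and tTA, differed by -0.07 ± 0.08 (95% interval -0.24 to 0.11), less than the spread within the tTA arrays. The middle neighbours met at their edges, at 345 in tTA array 9322 and 343 in FVBN + Doxy array 8340. The upper neighbours, FVBN + Doxy and FVBN control, differed by -0.18 ± 0.13, and all 4 FVBN + Doxy arrays lay below both control arrays, as 10.7% of all tested probe sets did. The doxycycline effect in tTA minus that in FVBN was 0.11 ± 0.15 (95% interval -0.21 to 0.43). These Doxy values reuse the arrays by which Pygb was chosen and are given with no test.

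**Figure D1:**
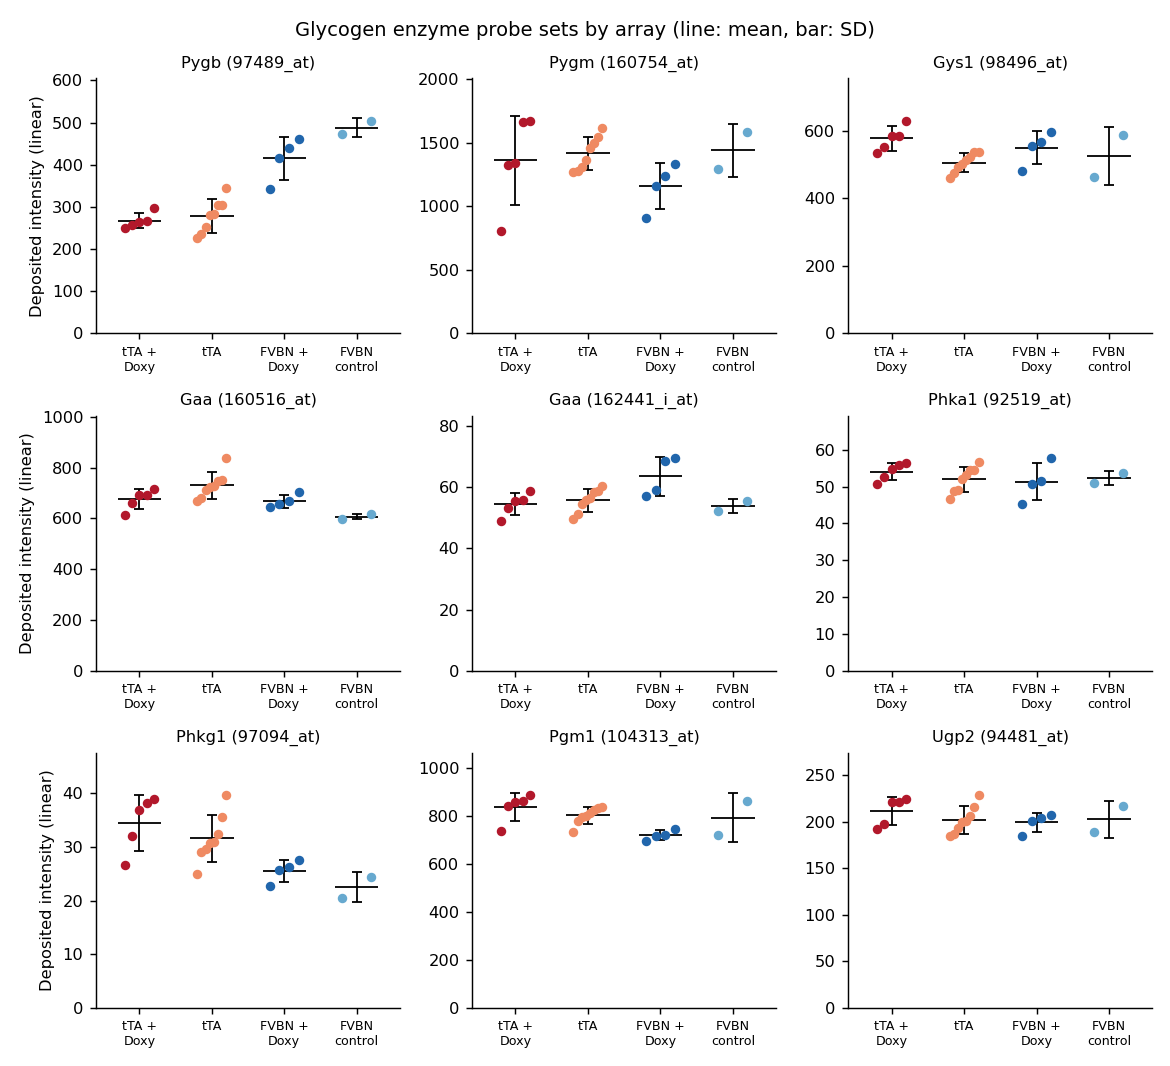
Deposited intensity of the 9 probe sets (vertical axes, units of intensity, each panel on its own scale) in every array of the 4 groups, with a line at each group's mean and a bar of 1 SD. Pygb lies between 225 and 345 in the tTA and tTA + Doxy arrays and between 343 and 504 in the FVBN + Doxy and FVBN control arrays.

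Pygm, the muscle phosphorylase at chr19:6384408-6398464, did not pass the test in any comparison in which it was tested. Its intensity was 808, 1321, 1659, 1669 and 1342 in the tTA + Doxy arrays, against 1159, 1333, 909 and 1233 in the FVBN + Doxy arrays. The groups overlapped, with the lowest value of each in array 7399 and array 8340. The log2 fold change was 0.18 ± 0.17 (95% interval -0.18 to 0.53, limma adjusted p = 0.580), which leaves room for a rise as well as a small fall. With 1 array left out it reached from 0.06 (without 8340) to 0.36 (without 7399), with limma adjusted p between 0.0552 and 0.866. In the 8 tTA arrays Pygm intensity had a lowest value of 1268, a median of 1412 and a highest value of 1611. In FVBN control it was 1583 and 1293, and the log2 fold change was 0.07 ± 0.20.

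The isoforms were then set against each other within each array, as log2 Pygb minus log2 Pygm. The size of this value depends on how brightly each probe set hybridises, so that only its change between groups can be read. It was -1.59, -2.28, -2.72, -2.47 and -2.43 in the tTA + Doxy arrays, against -1.47, -1.51, -1.39 and -1.49 in the FVBN + Doxy arrays. Every tTA + Doxy array was below every FVBN + Doxy array, narrowly so for array 7399, in which Pygm was low. The means were -2.30 ± 0.43 in tTA + Doxy and -1.46 ± 0.05 in FVBN + Doxy (SD, n = 5 and 4), a difference of -0.84 (two-sided exact permutation p = 0.0159, the smallest that the 126 splits of these arrays can give; 1 pair tested). The difference shows that the 2 probe sets changed unequally, not that Pygm stayed constant. Without doxycycline the value was -2.36 ± 0.25 in tTA (n = 8) and -1.52 ± 0.17 in FVBN control (n = 2).

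**Figure D2:**
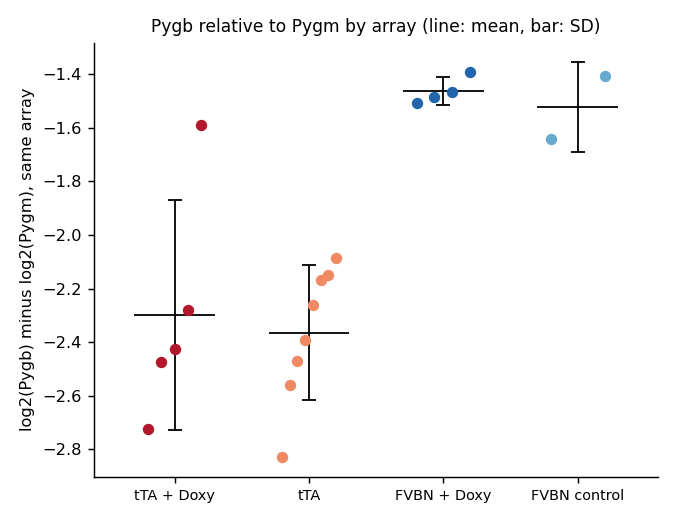
log2 Pygb minus log2 Pygm within each array (vertical axis, log2 units) for the 4 groups, with a line at each group's mean and a bar of 1 SD. The tTA + Doxy arrays reach from -2.72 to -1.59 and the tTA arrays from -2.83 to -2.09, below the FVBN + Doxy arrays at -1.51 to -1.39.

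Other measures differed between the genotypes along with Pygb. RNA integrity was read from the control probe sets of beta-actin, as log2 of the 3′ signal over the 5′ signal. This ratio was 0.36 ± 0.06 in tTA + Doxy and 0.51 ± 0.08 in FVBN + Doxy, and 0.32 ± 0.11 in tTA and 0.55 ± 0.01 in FVBN control (SD). With this ratio as a covariate, Pygb was lower by a log2 fold change of -0.62 in tTA + Doxy against FVBN + Doxy (limma adjusted p = 0.00693), and the value was -0.70 in tTA against FVBN control. Of 4 smooth muscle markers 3 were tested and 1 fell under doxycycline, Acta2, smooth muscle actin (-0.66 ± 0.17, limma adjusted p = 0.0278, and 0.131 once the actin ratio was a covariate). The Acta2 call was also lost without any 1 of 6 arrays, FVBN + Doxy 8337, 8338 or 8340 or tTA + Doxy 7399, 7486 or 7488 (adjusted p = 0.0580 to 0.0927), with all probe sets tested (0.0576), with array weights (0.0505) and with only the arrays compared (0.0821). In tTA against FVBN control Acta2 fell by 1.27 ± 0.20 on the log2 scale (limma adjusted p = 0.00151), a call lost with the covariate (0.101) and without FVBN control array 8177 (0.0652). Neither of the other tested smooth muscle markers, Cnn1 and Tagln, was called. Under doxycycline they were at -0.01 ± 0.05 and 0.004 ± 0.06, and without it at -0.01 ± 0.06 and 0.03 ± 0.07. The smooth muscle markers' summed intensity, with Acta2 included, was 380 to 556 in tTA + Doxy and 473 to 638 in FVBN + Doxy. Without doxycycline it was 322 to 396 in tTA and 584 to 629 in FVBN control. The summed intensity of 2 erythroid markers was 2370 to 5335 in tTA + Doxy and 4992 to 5553 in FVBN + Doxy, with neither called. Of 5 endothelial markers 0 were called under doxycycline (summed intensity 716 to 776 in tTA + Doxy and 759 to 838 in FVBN + Doxy). Of 4 glia and nerve markers on the array 2 were tested and 0 called (summed intensity 828 to 967 in tTA + Doxy and 905 to 954 in FVBN + Doxy). Of 4 brown fat markers on the array 2 were tested and 1 rose under doxycycline, Cidea, a lipid droplet protein (0.51 ± 0.08, limma adjusted p = 0.000596; summed intensity 264 to 304 in tTA + Doxy and 225 to 247 in FVBN + Doxy). Without doxycycline 1 endothelial marker fell, Emcn (-0.28 ± 0.07, limma adjusted p = 0.0265; summed intensity 755 to 814 in tTA and 881 to 897 in FVBN control). Of 5 fibroblast and 5 macrophage markers 0 were called in either genotype comparison. Their median log2 fold changes were -0.15 for fibroblast and -0.08 for macrophage markers under doxycycline, and 0.03 and -0.16 without it. None of the markers of these lists was at the intensity floor on all arrays, and the part of these cell types in the Pygb result was not tested.

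Phosphorylase kinase was measured through Phka1 and Phkg1. Phka1 averaged 54.1 ± 2.42 in tTA + Doxy and 51.3 ± 5.08 in FVBN + Doxy (log2 fold change 0.09 ± 0.06, limma adjusted p = 0.427), and 52.0 ± 3.44 in tTA and 52.3 ± 1.80 in FVBN control. These differences were within the spread of the arrays. Phkg1 had intensities of 36.9, 26.5, 38.9, 38.2 and 32.0 in tTA + Doxy, against 27.5, 22.7, 25.7 and 26.3 in FVBN + Doxy. It had a lowest value of 24.9, a median of 30.8 and a highest value of 39.7 in tTA, against 24.5 and 20.6 in FVBN control. The groups overlapped at 1 tTA + Doxy array under doxycycline. Without doxycycline they did not overlap, as for 6.63% of all tested probe sets with tTA higher. The differences of the Phkg1 group means were 0.44 and 0.46 on the log2 scale, with no test because of its low intensity. In a fit of all probe sets the limma adjusted p of Phkg1 was 0.0885 under doxycycline.

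Among the genes of synthesis, Pgm1 was the member that passed the test under doxycycline besides Pygb. Its intensity was 860, 738, 888, 844 and 864 in tTA + Doxy, against 723, 719, 696 and 747 in FVBN + Doxy. The groups met at 738 in tTA + Doxy and 747 in FVBN + Doxy. After quantile normalization they did not overlap, as for 6.23% of all tested probe sets with tTA + Doxy higher. Pgm1 rose by 0.20 ± 0.05 on the log2 scale, 1.15-fold (limma adjusted p = 0.0267; higher than the FVBN + Doxy mean in 5 of 5 arrays). This call was lost without FVBN + Doxy array 8337 (adjusted p = 0.0531), 8338 (0.0621) or 8340 (0.0794), without tTA + Doxy array 7485 (0.0794) or 7488 (0.0768), and once the actin ratio was a covariate (0.0773, at a log2 fold change of 0.19). Without doxycycline Pgm1 averaged 803 ± 34.7 in tTA and 793 ± 102 in FVBN control, a log2 fold change of 0.12 ± 0.06 after quantile normalization and 0.01 with arrays scaled to the same median.

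Gys1 and Ugp2 did not pass the test. Gys1 averaged 578 ± 36.6 in tTA + Doxy and 550 ± 48.6 in FVBN + Doxy (log2 fold change 0.04 ± 0.07, 95% interval -0.10 to 0.17, limma adjusted p = 0.778), and 505 ± 28.2 in tTA and 526 ± 86.3 in FVBN control (0.01 ± 0.08). Ugp2 averaged 211 ± 15.1 in tTA + Doxy and 199 ± 10.1 in FVBN + Doxy (0.06 ± 0.06, adjusted p = 0.621), and 202 ± 14.7 in tTA and 203 ± 19.8 in FVBN control (0.01 on the log2 scale).

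The 2 probe sets of Gaa disagreed in both genotype comparisons. The brighter one averaged 730 ± 52.3 in tTA and 607 ± 11.3 in FVBN control, a log2 fold change of 0.32 ± 0.07. All 8 tTA arrays lay above both control arrays, as for 6.63% of all tested probe sets. The dimmer one averaged 55.7 ± 3.77 in tTA and 53.8 ± 2.27 in FVBN control (0.03 ± 0.08). Under doxycycline the brighter probe set averaged 675 ± 39.9 in tTA + Doxy and 667 ± 25.7 in FVBN + Doxy (-0.01 ± 0.06, limma adjusted p = 0.942). The dimmer one averaged 54.5 ± 3.64 in tTA + Doxy and 63.6 ± 6.37 in FVBN + Doxy (-0.21 ± 0.07, adjusted p = 0.0632), and it passed when FVBN + Doxy array 8340 (0.0349) was left out, or tTA + Doxy array 7424 (0.0495).

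Across the 8 tested probe sets, 2 were called under doxycycline, Pygb lower and Pgm1 higher, beside 5.86% of all tested probe sets. The Pgm1 call was lost under the alternatives given above. The median log2 fold change of the 8 was 0.05, beside -0.01 over all tested probe sets. Without doxycycline the fit called 2 of the 8, beside 2.79% of all, Pygb lower and the brighter Gaa probe set higher. The median was 0.02 beside 0.01 over all. Nothing is read from that count or from these 2 calls, since the members were chosen in view of this comparison. The fit no longer called Pygb with the actin ratio as a covariate (-0.70). It no longer called the Gaa probe set with that covariate (0.33), with arrays scaled to the same median (0.25), or without FVBN control array 8177 (0.28) or 8182 (0.35).

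**Figure D3:**
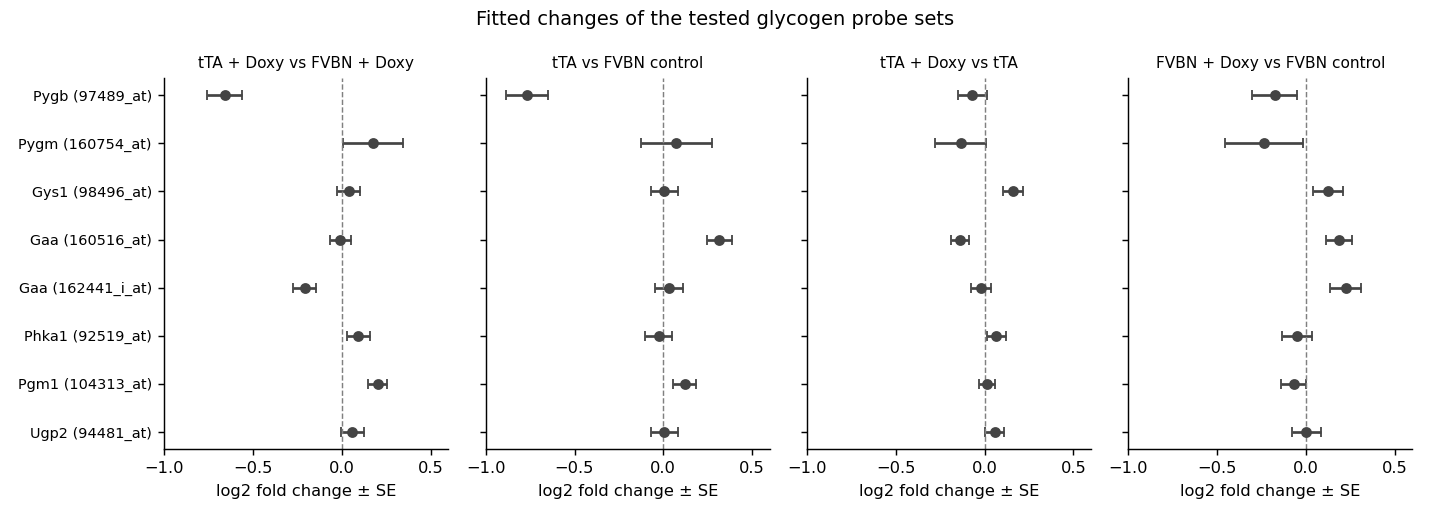
log2 fold change of each tested probe set (horizontal axis, log2 units) in 2 genotype and 2 doxycycline comparisons, with bars of 1 standard error. Pygb lies at -0.66 in tTA + Doxy against FVBN + Doxy and at -0.77 in tTA against FVBN control, while Pygm lies at 0.18 and 0.07.

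Doxycycline itself was examined within each genotype. These comparisons reuse the tTA and FVBN control arrays on which the members were selected, so their p-values are not independent of that choice. Of the 7 tested probe sets other than that of Pygb, limma called 0 in FVBN + Doxy against FVBN control, where 0.0403% of all tested probe sets were called, and 0 in tTA + Doxy against tTA, where 0.0671% were. An unadjusted limma p under 0.05 was reached by 2 of the 7 in FVBN, both of Gaa, beside 881 of all 7453 tested. In tTA it was reached by 2 of the 7, Gys1 and the brighter Gaa probe set, beside 570 of all 7453. Pygm had a log2 fold change of -0.24 ± 0.22 in FVBN + Doxy against FVBN control (limma adjusted p = 0.674) and -0.13 ± 0.14 in tTA + Doxy against tTA (0.878). Gys1 was at 0.13 ± 0.08 (0.542) in FVBN and 0.16 ± 0.06 (0.459) in tTA, the second with all 5 tTA + Doxy arrays above the tTA mean. The brighter Gaa probe set was at 0.19 ± 0.08 in FVBN (0.394) and -0.14 ± 0.05 in tTA (0.482). The dimmer one was at 0.22 ± 0.09 in FVBN (0.373) and -0.02 ± 0.06 in tTA (0.967). The difference between these effects was -0.33 ± 0.09 for the brighter and -0.24 ± 0.10 for the dimmer probe set. Such differences contain the tTA and FVBN control values on which the members were selected, and are given with no test for any member.

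Other genes of the pathway were taken from 6 lists, which held 34 genes with a probe set, 28 of them tested. Under doxycycline 2 rose and 0 fell, 7.14% of the 28 beside 5.86% of all tested probe sets, with a median log2 fold change of 0.003. Gyg, glycogenin, the primer of glycogen synthesis, rose on one probe set (0.29 ± 0.08, limma adjusted p = 0.0302), while its other probe set was at 0.13 ± 0.13 (0.564). The Gyg call was lost without FVBN + Doxy array 8337 (limma adjusted p = 0.0839) or 8341 (0.141), without tTA + Doxy array 7485 (0.0870) or 7488 (0.0808), with all probe sets tested (0.0901) and with only the arrays compared in the fit (0.0573). Ppp1cc, a catalytic subunit of protein phosphatase 1, rose as well (0.32 ± 0.08, limma adjusted p = 0.0177), a call lost without FVBN + Doxy array 8337 (0.0533) or 8341 (0.0808) and with all probe sets tested (0.0616). The branching enzyme Gbe1 (0.22 ± 0.11, adjusted p = 0.226) and the synthase kinase Gsk3a (0.15 ± 0.05, 0.0707) did not pass. Nor did the other phosphorylase kinase subunits, Phka2 (-0.01 ± 0.05), Phkb (-0.06 ± 0.07) and Phkg2 (0.04 ± 0.04). Among 6 tested lysosomal genes 0 passed, the lysosomal hexosaminidase subunit Hexa being at 0.19 ± 0.06 (0.0632).

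Without doxycycline 0 of the 28 rose and 1 fell, 3.57% beside 2.79% of all tested probe sets, with a median of -0.05. The one that fell was Hk2, the hexokinase that phosphorylates glucose on entry (-0.49 ± 0.07, limma adjusted p = 0.000386; 0.0758 once the actin ratio was a covariate); under doxycycline it was at -0.19 ± 0.06 (0.0764). The difference between these Hk2 values was not called. The insulin-responsive glucose transporter Slc2a4 was at -0.23 ± 0.08 without doxycycline (limma adjusted p = 0.100) and -0.05 ± 0.06 with it. None of the 28 was called by limma in either doxycycline comparison or in the difference between them, in which 0.0134% of all tested probe sets were called.

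**Figure D4:**
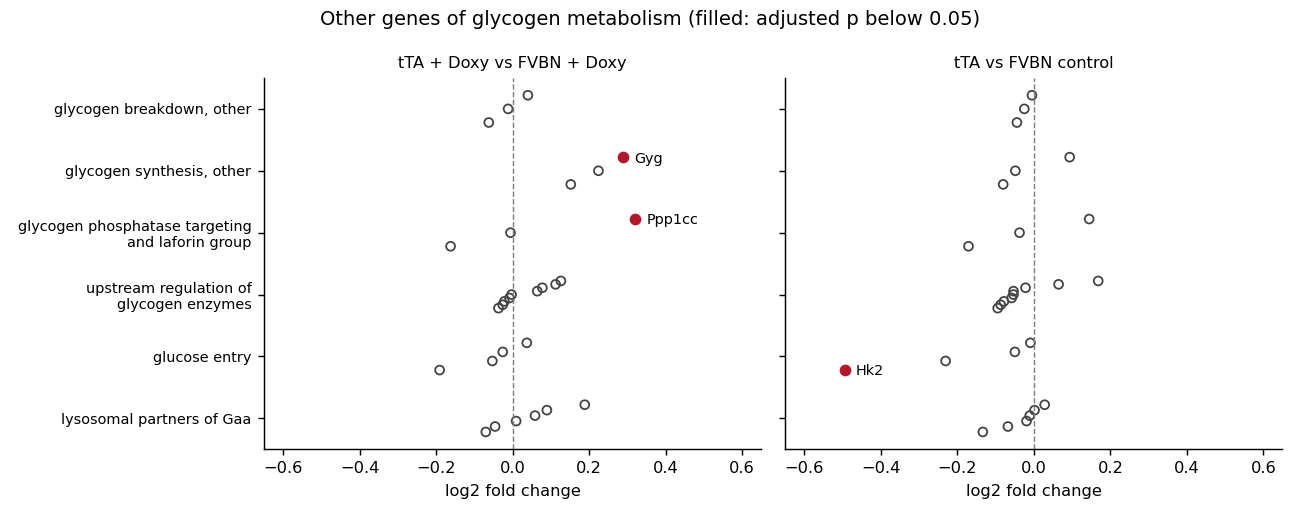
log2 fold change (horizontal axis, log2 units) of the 28 other tested pathway genes by list, for tTA + Doxy against FVBN + Doxy and for tTA against FVBN control; each point is 1 gene, filled where the limma adjusted p was under 0.05. Hk2 lies at -0.49 in tTA against FVBN control, and Gyg and Ppp1cc lie at 0.29 and 0.32 in tTA + Doxy against FVBN + Doxy.

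Finally, the genes whose profile over the 19 arrays lay closest to that of Pygb were found by the root mean square difference of centred log2 values, in which a flat profile would be 0.35 from Pygb and the median probe set was 0.36 away. The closest was Itpr2, an inositol trisphosphate receptor, at 0.16. Gja1, a connexin of cardiac gap junctions, was at 0.17, Oxct1, an enzyme of ketone body use, at 0.18, and Tnnt1, the slow skeletal troponin T, at 0.18. Pkp2, a desmosomal plakophilin, was at 0.18 and Nrp1, a co-receptor of semaphorins and VEGF, at 0.19. Since they were picked for their likeness to Pygb on the same arrays, their changes are given with no test: the log2 fold change in tTA + Doxy against FVBN + Doxy was -0.35 for Itpr2, -0.47 for Gja1, -0.45 for Oxct1, -0.44 for Tnnt1, -0.45 for Pkp2 and -0.41 for Nrp1. All 6 were smaller in size than that of Pygb in this comparison, at -0.66. In tTA against FVBN control, Itpr2 and Pygb were both at -0.77, and the other five were between -0.60 and -0.37.

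**Figure D5:**
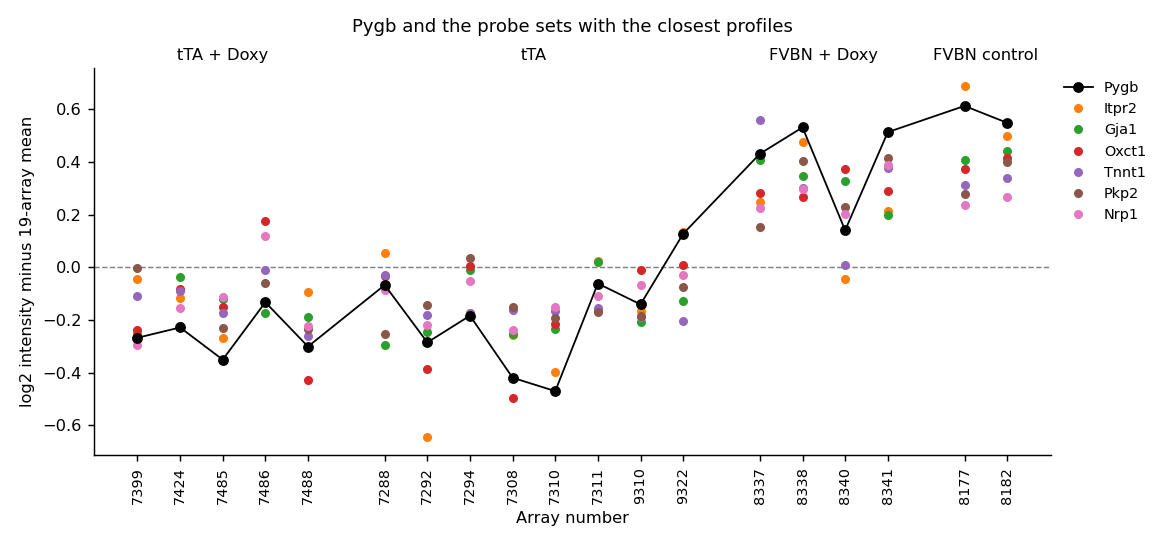
Centred log2 values (vertical axis, log2 units) of Pygb and of the 6 closest probe sets over the 19 arrays, grouped as tTA + Doxy, tTA, FVBN + Doxy and FVBN control. Pygb, the joined points, lies below its 19-array mean in every tTA + Doxy array and every tTA array but 9322, and above it in every FVBN + Doxy and FVBN control array.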

How the data were processed

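Ventricular RNA was measured on 20 arrays, of which 19 had a group in their titles; the 1 other is not compared. The deposited values are linear intensity per probe set, already summarised by the authors; the sources used here do not give the software or the scaling. Arrays give no read depth, and their number limits the precision.

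After removal of 66 control probe sets, the other 12422 were quantile normalized, floored at the 10th percentile (14.4 units of intensity) and log2 transformed. The brightest 60% by mean, 7453 probe sets of 5658 genes, were fitted with limma 3.58.1 (R 4.3.3): 4 group means over 19 arrays, moderated with trend and robust settings, and Benjamini-Hochberg adjustment over all 7453 with a threshold of 0.05. The fit was tested on simulated data. The annotation gave 10833 probe sets 1 gene, 396 several and 1193 none, and 10817 of the first were matched by gene number to RefSeq. Group means of intensity are of deposited values, and log2 fold changes of normalized ones.

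The members and lists were chosen with earlier results of these data known. The named genes were all members, the called genes of each list (up to 4), and the 6 closest profiles; further list genes are named as examples chosen after their values were seen. Alternatives covered normalization, floor, filter, array weights, an RNA integrity covariate, the arrays fitted and leaving out each array.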

Additional observations from a re-analysis of the deposited data

Results flagged for a closer look

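Of 27 groups of member values with 4 to 10 arrays, 1 held an array far from the others. The brighter Gaa probe set had an intensity of 838 in tTA array 7288, while the other tTA arrays lay between 667 and 750; its gap to the next array was 0.567 of the group's range. Chance alone flags about 1 in 20 such groups.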

How the results depend on the processing

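Pygb in tTA + Doxy against FVBN + Doxy stayed called under every alternative, at -0.66 to -0.62 (limma adjusted p = 0.000319 to 0.00693) under other processing and -0.75 to -0.62 (0.000202 to 0.00278) with 1 array left out. The Pygb minus Pygm difference reached from -1.01 to -0.73 with 1 array left out (exact permutation p = 0.0286 to 0.0357). Each of these p-values is the smallest that the splits of the remaining arrays can give, so they show only that the groups stayed separate. Of the alternative values of members that carry a test, 583 kept direction and call or lack of call, and 25 changed sign. A call was lost by 6 (Pgm1 each time) and gained by 2 (the dimmer Gaa probe set). Only Pygb and Pgm1 in tTA + Doxy against FVBN + Doxy were called in the main fit, so most values kept a lack of call. Many alternatives left out an array of neither group compared, which could change a value little. The count of 583 is therefore no measure of robustness. Of the alternative values given with no test, 578 moved by less than the spread between arrays and 14 by more, all of Gys1, Pgm1 and the brighter Gaa probe set. Called pathway genes were put through the same alternatives, a choice made after seeing the data.

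The number of probe sets called was 208 for tTA against FVBN control and 27 with the beta-actin covariate (54 to 240 with 1 array left out). For tTA + Doxy against FVBN + Doxy it was 437, 282 with all probe sets tested and 703 with array weights (241 to 493). For FVBN + Doxy against FVBN control it was 3, 1 with all probe sets tested, 5 with only the compared arrays and 8 without tTA arrays 9310 and 9322 (1 to 7). For tTA + Doxy against tTA it was 5, 10 with median scaling, 11 with no normalization, 2 with all probe sets, 11 with array weights and 3 without tTA arrays 9310 and 9322 (3 to 23). For the difference of the doxycycline effects it was 1, 6 with median scaling or no normalization, 0 with all probe sets and 4 without those arrays (0 to 4). Fewer probe sets are adjusted for where only the brightest are tested; otherwise the cause was not tested.

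The sign changes counted were all of values not called in the main fit. They included Pygm in tTA + Doxy against tTA, at -0.13 in the main fit. They also included Gys1 in FVBN + Doxy against FVBN control, at 0.13 there. Uncalled values given with no test were not counted for sign. Pygm in tTA against FVBN control, for example, reached from -0.075 to 0.22 with 1 array left out. The brighter Gaa probe set in tTA + Doxy against FVBN + Doxy was 0.022 with median scaling, 0.016 with no normalization and 0.026 with array weights, and Ugp2 was -0.0024 with the covariate. Ugp2 in FVBN + Doxy against FVBN control was -0.034 with median scaling, -0.022 with no normalization and -0.014 with the covariate. Without tTA arrays 9310 and 9322, the dimmer Gaa probe set was 0.0046 and Pgm1 -0.0029 in tTA + Doxy against tTA. With 1 array left out, in tTA + Doxy against FVBN + Doxy, Gys1 reached from -0.019 to 0.067 and the brighter Gaa probe set from -0.043 to 0.019. In FVBN + Doxy against FVBN control, Gys1 reached from -0.022 to 0.28, Phka1 from -0.11 to 0.010, Pgm1 from -0.17 to 0.034 and Ugp2 from -0.097 to 0.10. In tTA + Doxy against tTA, Pygm reached from -0.22 to 0.047, the dimmer Gaa probe set from -0.043 to 0.016 and Pgm1 from -0.0068 to 0.048.

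With 1 FVBN control array left out, the lone array is assumed to vary like the other groups. A second probe set of Pygb or Pygm was not available to try, and Phkg1, too dim for the fit, was not run with array weights, the covariate, other moderation or only the compared arrays. No paired analysis was possible because the groups share no array number.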

Other observations

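One array, whose title names cardiac tTA expression, has no group in the labels and entered no comparison. The labels do not say whether it came from a tTA or an FVBN mouse. Its intensity was 488 for Pygb, 1157 for Pygm, 505 for Gys1, 633 and 56.8 for the 2 Gaa probe sets, 51.2 for Phka1, 26.6 for Phkg1, 785 for Pgm1 and 183 for Ugp2. The Pygb value was near the FVBN control mean of 488. It lay above the highest tTA array, at 345, and the highest tTA + Doxy array, at 297.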
